A study of Homo sapiens with 4 samples.

Results

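Immune checkpoint ligands are the molecules with which a cell restrains or supports the lymphocytes that touch it, and 10 of their genes were followed here in breast epithelial cells with and without a shRNA against PAK1. The genes were chosen by name from the gene names of the array, as the spots other than controls that carry CD274, PDCD1LG2, IDO1, LGALS9, CD80, CD86, ICOSLG, VTCN1, TNFRSF14 or PVR. They are 10 of the 27193 gene names on the array and are read by 16 of its 34127 probes, which take up 25 of the 43118 spots other than controls. IDO1 is an enzyme and not a surface ligand, and is kept with them because it acts on the same T cells from outside.

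PD-L1 (CD274) and PD-L2 (PDCD1LG2) on an epithelial or tumour cell bind PD-1 on T cells and restrain them, and both are known targets of interferon signalling through JAK kinases and IRF1. CD80, CD86 and ICOSLG are co-stimulatory members of the same B7 family that are best known from antigen-presenting cells, while VTCN1, another B7 protein, is inhibitory and known from breast and other epithelia. Galectin-9 (LGALS9), HVEM (TNFRSF14) and the poliovirus receptor (PVR) bind further lymphocyte receptors, and IDO1 breaks down the tryptophan that T cells need.

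All samples were MCF10A.B2 cells, derived from the non-tumorigenic mammary line MCF10A and carrying a form of ErbB2 (Her2) which the crosslinker AP1510 switches on. In both groups the cells were serum starved for 3 h and given AP1510 for 15 min before RNA was extracted, so ErbB2 was activated in the control cells too. The 2 control samples are labelled Pak1 wild type, and the methods name cells without the shRNA, while the series description can also be read as all cells carrying the inducible shRNA, and neither says whether the controls received the inducer. The 2 PAK1 shRNA samples stably carried a Tet inducible shRNA against PAK1; no array of a non-targeting shRNA was analysed here, so effects of the vector or the inducer and of the loss of PAK1 cannot be told apart. The series description also speaks of cells from separate tumours, which the sample labels do not, and the labels do not say how the samples of a group were obtained, so the p-values measure only the spread between these samples, which may be technical.

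Each sample was hybridised in 1 colour to 1 Agilent array, and the 4 arrays lay on 1 slide. Between 78.8% and 82.9% of the probes were well above background on an array, and the number of arrays limits the precision. All 10 basal epithelial markers, among them KRT5, KRT14 and TP63, exceeded background clearly on all 4 arrays, as the labelled cell type requires. Of 15 leukocyte markers 14 did so as well, so exceeding background does not tell cell types apart here. PAK1 itself had a normalized log2 intensity of 11.19 and 11.27 in control cells and of 10.44 and 10.51 in PAK1 shRNA cells. Its level was therefore lower on both PAK1 shRNA arrays, the log2 fold change being -0.75 (standard error 0.08, limma, Benjamini-Hochberg adjusted p = 0.00016). This fall was less than 2-fold, but it rests on 1 tested probe and is relative to the rest of each array. Before normalization, control cells gave PAK1 mean signals of 3164 and 2618, while PAK1 shRNA cells gave 1149 and 1194. The median signal over all spots was lower in PAK1 shRNA cells too. How much PAK1 mRNA remained in the cells called PAK1 deficient is therefore uncertain. Of all genes tested, 85.7% had a higher log2 fold change than PAK1.

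The probes below show which stretch of mRNA was read for 3 of the genes that rose, by a probe in the coding part or across a splice junction. They are the 60-base probes of the array, written 5′ to 3′ in lower case throughout because no base is singled out, and their positions are those of the array files (hg19). The CD274 probe lies at chr9:5465546-5465605, the PDCD1LG2 probe is spread over chr9:5549556-5557628 and the LGALS9 probe over chr17:25974458-25975920, all on the plus strand. The PDCD1LG2 and LGALS9 probes thus match 8073 and 1463 bases of genome with 60 bases, which places them across an intron, so they read spliced RNA.
CD274: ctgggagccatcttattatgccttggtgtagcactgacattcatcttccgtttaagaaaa
PDCD1LG2: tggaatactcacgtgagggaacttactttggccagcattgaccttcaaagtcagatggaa
LGALS9: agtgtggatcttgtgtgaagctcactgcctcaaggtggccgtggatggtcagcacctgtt

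Of the 10 genes, 5 were at least 2-fold higher in PAK1 deficient cells (CD274, PDCD1LG2, IDO1, LGALS9 and TNFRSF14), PVR was slightly higher, ICOSLG was lower, and CD80, CD86 and VTCN1 did not pass the test at an adjusted p under 0.05. These calls have to be read against an array on which 63% of the 22004 genes tested were called in either direction, 30.9% higher and 32.1% lower, and on which 8.8% were called at least 2-fold higher and 9.08% at least 2-fold lower. The 2 PAK1 shRNA arrays lay outside the range of the 2 control arrays for 7 of the 10 genes, a separation that 81.4% of all genes tested showed. Neither share is read as particular to the set, and the sizes of the changes are given by their rank. IDO1 ranked 39, CD274 84 and LGALS9 119 from the highest log2 fold change of the 22004 genes and TNFRSF14 560, whereas ICOSLG was at rank 21099 and 95.9% of genes had a higher value.

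All 10 genes passed the filter on dim probes, and on all 4 arrays 9 of them were well above background. The exception was PDCD1LG2, which passed through the PAK1 shRNA arrays only and therefore had to differ. In such a gene the filter favours a higher level in the group it passed through, a difference that need not pass the test. Among the other 9 genes 5 were higher, 1 was lower and 3 did not pass, with a median log2 fold change of 0.48, and among the 20652 genes well above background on all arrays 31.4% were higher and 32.5% lower, with a median of 0.02. For 1 gene alone, an exact permutation test (two-sided) of 2 arrays per group has a smallest p of 0.333, so the tests below borrow the spread of all genes through limma.

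**Figure D1:**
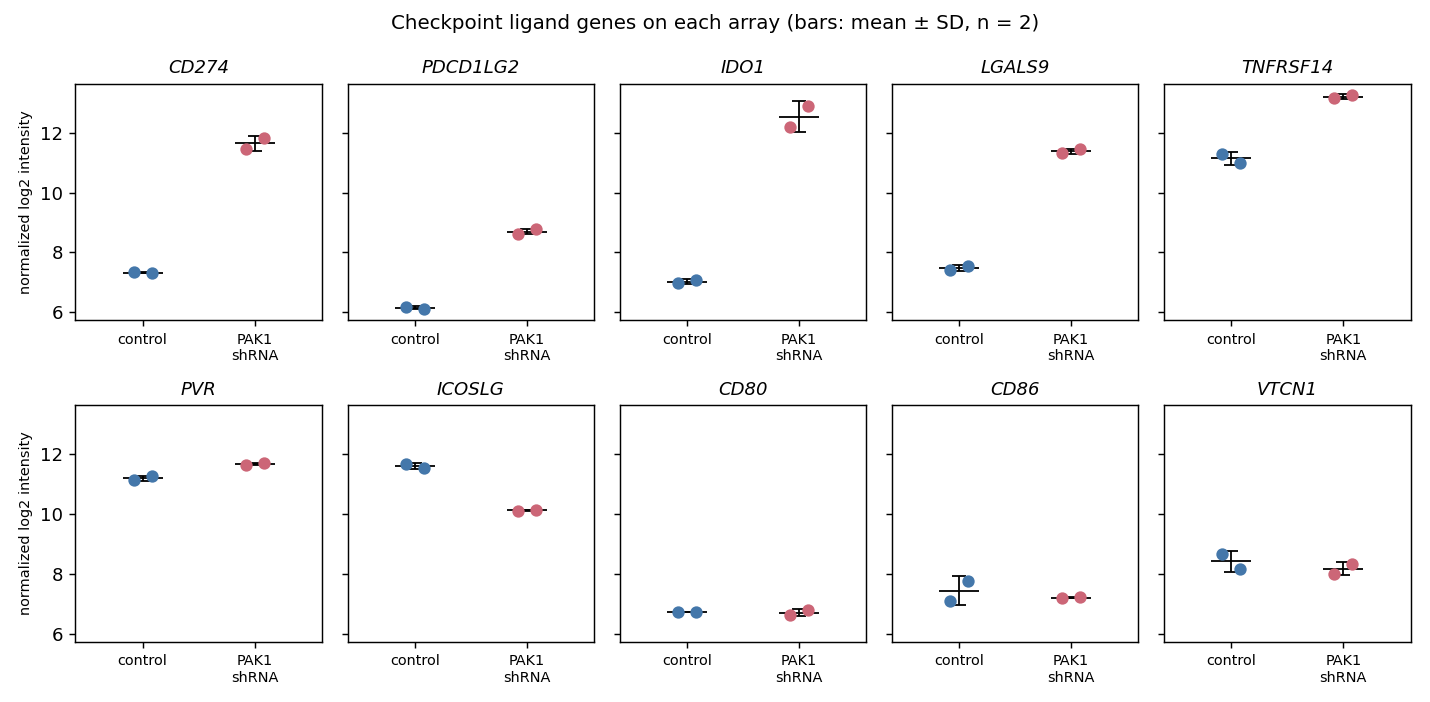
Normalized log2 intensity (y axis) of the 10 genes on the 2 control arrays (blue) and the 2 PAK1 shRNA arrays (red), with the mean and SD of each group as black bars. CD274, PDCD1LG2, IDO1, LGALS9, TNFRSF14 and PVR are higher and ICOSLG is lower on both PAK1 shRNA arrays, while the groups overlap for CD80, CD86 and VTCN1; heights are not comparable between genes, which are read by different probes.

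CD274 encodes PD-L1, the main ligand of PD-1. Control arrays 1 and 2 gave a normalized log2 intensity of 7.33 and 7.30, against 11.47 and 11.83 for PAK1 shRNA arrays 1 and 2. The control arrays were close to each other and far below both PAK1 shRNA arrays, and the same was seen before normalization, where the spot had mean signals of 181 and 136 in control cells against 2381 and 3016 in PAK1 deficient cells. The log2 fold change was 4.33 (standard error 0.12, 95% confidence interval 4.04 to 4.63, limma, Benjamini-Hochberg adjusted p = 8.4e-07), a 20.2-fold rise. The probe used lies at chr9:5468310-5468369, and the second probe, whose sequence is printed above, gave a smaller log2 fold change of 3.13 with values of 6.62 and 6.66 against 9.66 and 9.88. Both probes of CD274 therefore rose, by different amounts. In bulk RNA, a change in every cell and a change in the number of cells that express a gene cannot be told apart.

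PDCD1LG2 encodes PD-L2, the second ligand of PD-1, and is the next gene after CD274 on chromosome 9. It was not well above background on either control array, where its normalized log2 intensity was 6.18 and 6.11, and reached 8.63 and 8.77 on the PAK1 shRNA arrays. Because the control level is only a bound, PDCD1LG2 is given as at least 5.83-fold higher in PAK1 deficient cells under the processing used. For this bound the control level was raised, where lower, to the dimmest signal well above background of each control array. The bound does not cover the spread between arrays or the choice of processing. A different fit of the background correction gave a log2 fold change of 1.45. The second probe, at chr9:5557692-5557751, was at least 6.47-fold higher on the same terms. Its spot on control array 1 was flagged and left out, so that it rests on 1 control array, at 6.14, against 8.66 and 9.01. Transcripts of both PD-1 ligands were thus more abundant in PAK1 deficient cells, that of PD-L2 from a level not well above background.

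IDO1, the enzyme that opens the kynurenine pathway of tryptophan breakdown, had the largest rise among the 9 genes measured above background on all arrays. The normalized log2 intensity of IDO1 was 6.97 and 7.07 in control cells and 12.18 and 12.90 in PAK1 shRNA cells. The 2 PAK1 shRNA arrays differed from each other by more than the control arrays did, yet both lay far above them. The log2 fold change was 5.52 (standard error 0.21, 95% confidence interval 5.01 to 6.04, limma, Benjamini-Hochberg adjusted p = 2.7e-06), or 46-fold. IDO1 is the only gene of the set printed in replicate, with 10 spots of 1 probe on each array, at chr8:39785529-39785588. The mean signals of these spots ran from 105.9 to 154.6 and from 101.1 to 134.6 in control cells and from 3452 to 4370 and from 5724 to 7342 in PAK1 deficient cells. The coefficient of variation over the 10 spots was between 8.97% and 12% on an array, so the gap between the PAK1 shRNA arrays was wider than the spread of spots within either of them.

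LGALS9 encodes galectin-9, a lectin that binds TIM-3 and other glycoproteins of T cells. On the log2 scale, the normalized intensity of the probe used was 7.42 and 7.56 in control cells and 11.33 and 11.44 in PAK1 shRNA cells. The groups did not overlap, and the log2 fold change of 3.90 (standard error 0.09, 95% confidence interval 3.69 to 4.10, limma, Benjamini-Hochberg adjusted p = 3.8e-07) corresponded to a 14.9-fold rise. The second probe, at chr17:25967739-25967798, went from 8.20 and 8.17 to 10.36 and 10.45, a smaller log2 fold change of 2.22. LGALS9 has near-identical copies, LGALS9B and LGALS9C, whose transcripts may bind the same probes. The probe named for LGALS9C went from 10.68 and 10.79 to 15.72 and 15.93, a log2 fold change of 5.09, so the probes of this family rose together and the share of each copy is uncertain.

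TNFRSF14 encodes HVEM, which engages BTLA and CD160 on lymphocytes and is itself the receptor of LIGHT. Its normalized log2 intensity was 11.30 and 10.98 in control cells and 13.15 and 13.26 in PAK1 shRNA cells. Both PAK1 shRNA arrays were above both control arrays, the log2 fold change being 2.06 (standard error 0.12, 95% confidence interval 1.78 to 2.34, limma, Benjamini-Hochberg adjusted p = 1.2e-05), or 4.18-fold. TNFRSF14 was read by 1 probe, at chr1:2495144-2495203.

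PVR, also called CD155, is bound by TIGIT, CD96 and the activating receptor CD226. The probe used had a normalized log2 intensity of 11.14 and 11.27 in control cells and 11.66 and 11.71 in PAK1 shRNA cells. The groups did not overlap, but the log2 fold change was only 0.48 (standard error 0.08, 95% confidence interval 0.28 to 0.67, limma, Benjamini-Hochberg adjusted p = 0.0019), and 19.9% of all genes had a higher value. Before normalization the mean signals overlapped, with 3053 and 2610 in control cells and 2707 and 2778 in PAK1 shRNA cells, on arrays whose median signal over all spots was 500.9 and 383.5 in control cells and 326.1 and 318.7 in PAK1 shRNA cells. The rise of PVR is therefore relative to the rest of each array. All 3 PVR probes pointed the same way, the one used at chr19:45166078-45166137 and the other 2 with log2 fold changes of 0.28 and 0.69.

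ICOSLG, the ligand of the co-stimulatory receptor ICOS, was the only gene of the set that fell. Its normalized log2 intensity was 11.70 and 11.55 in control cells and 10.12 and 10.15 in PAK1 shRNA cells. Both PAK1 shRNA arrays lay below both control arrays, and the log2 fold change was -1.49 (standard error 0.08, 95% confidence interval -1.69 to -1.29, limma, Benjamini-Hochberg adjusted p = 1.1e-05), a 2.81-fold fall. The probe used lies at chr21:45642940-45642999 on the minus strand. The second probe, at chr21:45655295-45655354, had a log2 fold change of -0.70, with 7.38 and 7.39 against 6.70 and 6.68, so both probes fell and by different amounts.

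CD80 and CD86, the ligands shared by CD28 and CTLA-4, did not pass the test. The normalized log2 intensity of CD80 was 6.73 and 6.73 in control cells and 6.64 and 6.79 in PAK1 shRNA cells. CD80 thus had a log2 fold change of -0.02 with a 95% confidence interval from -0.21 to 0.18 (limma, Benjamini-Hochberg adjusted p = 0.88), which leaves out a change of 2-fold either way at this dim level. CD86 was at 7.10 and 7.78 in control cells and at 7.19 and 7.23 in PAK1 shRNA cells. The spread of CD86 lay mainly between the control arrays, and its log2 fold change of -0.23 had an interval from -0.71 to 0.26 (limma, Benjamini-Hochberg adjusted p = 0.365). Without control replicate 1 it became -0.55 and passed the test (limma, adjusted p = 0.0031), and without control replicate 2 it was 0.11.

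VTCN1, also known as B7-H4, is an inhibitory B7 protein of epithelial cells. Its normalized log2 intensity was 8.68 and 8.18 in control cells and 8.02 and 8.33 in PAK1 shRNA cells. The arrays of both groups overlapped, with a log2 fold change of -0.26 and a 95% confidence interval from -0.68 to 0.17 (limma, Benjamini-Hochberg adjusted p = 0.254). Without control replicate 2 it was -0.50 and passed the test (limma, adjusted p = 0.036), while without control replicate 1 it was -0.0044. The call on VTCN1, like that on CD86, hence depends on which control array is used.

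The other ligands of co-signalling receptors were examined from a list of 33 genes, of which 31 could be tested. Of these, 21 were higher in PAK1 deficient cells, none was lower and 10 did not pass, with a median log2 fold change of 0.93. Over all genes tested 30.9% were higher and 32.1% lower, with a median of 0.02. Without the genes that were at background in some control array, 19 of 28 were higher and none was lower. The largest changes were those of CEACAM1, a ligand of TIM-3, at 5.34 (standard error 0.10) on the log2 scale, and NT5E, the ectoenzyme CD73 that makes adenosine, with 3.62 (standard error 0.11). TNFSF14, which encodes LIGHT, the ligand of HVEM, had a log2 fold change of 2.72 (standard error 0.15), so transcripts of both partners of this pair were higher in the same samples. TNFSF9, the ligand of the co-stimulatory receptor TNFRSF9, had 2.69 (standard error 0.07). All 4 had Benjamini-Hochberg adjusted p-values of 1.2e-05 or less by limma. NECTIN2, which with PVR forms the ligand group of TIGIT and CD226, was named after its values were seen and had a log2 fold change of 2.25 (standard error 0.09), beside the 0.48 of PVR.

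The interferon route to PD-L1 was followed with 22 genes for receptors, JAK kinases, STAT and IRF factors, their inhibitors and the PD-L1 stabilisers CMTM6 and CMTM4. All 22 were tested, and 16 were higher, 2 were lower and 4 did not pass, with a median log2 fold change of 0.77. Over all genes tested 30.9% were higher and 32.1% lower, with a median of 0.02. USP18 and SOCS1, which restrain interferon signalling, had log2 fold changes of 5.87 (standard error 0.09) and 5.62 (standard error 0.12). NLRC5, the activator of MHC class I genes, had 4.09 (standard error 0.08). Their Benjamini-Hochberg adjusted p-values were 3.8e-07 or less by limma. The genes that fell were IFNAR1, a chain of the type I interferon receptor, with -0.57, and CMTM4 with -1.96, whereas CMTM6, named after its values were seen, had 1.34.

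Around IDO1, 15 of 17 genes of tryptophan and kynurenine handling could be tested. Of these, 6 were higher, 7 were lower and 2 did not pass, with a median log2 fold change of 0.01. Over all genes tested 30.9% were higher and 32.1% lower, so changes both ways are not read as particular to this list. TDO2, which catalyses the same step as IDO1, was not well above background in control cells and so is among the genes that had to differ; without it 5 were higher and 7 lower of 14. WARS, the tryptophanyl-tRNA synthetase, rose by 4.43 on the log2 scale (standard error 0.15), and KYNU, kynureninase, by 2.44 (standard error 0.09). SLC7A5, a transporter of tryptophan and other large amino acids, fell by 3.08 on the log2 scale (standard error 0.15), and AADAT, which turns kynurenine into kynurenic acid, fell by 2.41 (standard error 0.07). All 4 had Benjamini-Hochberg adjusted p-values of 6.1e-06 or less by limma.

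The receptors that these ligands engage are genes of lymphocytes and myeloid cells, and 13 of the 19 listed could be tested. Of these, 3 were higher (SIRPA, TNFRSF9 and CD2), LAG3 was lower and 9 did not pass, beside 30.9% higher and 32.1% lower over all genes tested. SIRPA, which binds CD47 and is not confined to leukocytes, had a log2 fold change of 1.00, and LAG3 had -0.33 (limma, Benjamini-Hochberg adjusted p = 0.037). The call on LAG3 was lost under the unpaired t-test and with the processed signal scaled to its 75th percentile. It was also lost when control replicate 1 or either PAK1 shRNA array was left out. PDCD1, which encodes PD-1, was at 7.97 and 7.90 in control cells and 8.09 and 8.09 in PAK1 shRNA cells, with a log2 fold change of 0.16 that did not pass, and KLRG1 had 0.18 and did not pass either. CTLA4, HAVCR2, BTLA, CD160, CD96 and CD200R1 were not well above background on both arrays of either group.

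Markers of other cells were read beside these results. Of 15 leukocyte markers, 14 were well above background on each array, all but FCER1A. Their summed normalized intensity was 47950 and 44190 in control cells and 79810 and 80520 in PAK1 shRNA cells. It thus moved with the ligands that rose, but the brightest genes dominate it. CD14 went from a log2 intensity of 14.22 and 14.15 to 15.42 and 15.55. Among the 14 tested, 6 were higher, none was lower and 8 did not pass, with CD14 at a log2 fold change of 1.30 and ITGAX at 2.32. The pan-leukocyte gene PTPRC was at 7.64 and 7.79 against 7.85 and 7.84 and the T cell genes CD3D and CD3E did not pass the test either. Of 7 fibroblast markers 4 were tested, 3 higher and 1 lower, with a summed intensity of 4917 and 4171 against 8200 and 8017. The part of these markers in the ligand results was not tested. Every marker count here stands beside the shares over all genes tested, 30.9% higher and 32.1% lower. The basal epithelial markers moved too, with 4 higher and 5 lower of 10, and KRT5, KRT14 and TP63 fell by 1.18, 0.98 and 1.13 on the log2 scale while remaining well above background. Their summed intensity, which the brightest genes dominate, lay between 481300 and 537700 on the 4 arrays.

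The genes whose profile over the 4 arrays was closest to that of CD274 were sought by the root mean square difference between log2 profiles, each centred on its own mean. They were GMPR, a guanosine monophosphate reductase, at 0.05, LOC100131733 at 0.06 and VGF, a secreted neuropeptide precursor, at 0.07. With 4 arrays in 2 groups this measure mainly finds genes with a similar fold change, and their log2 fold changes were 4.42, 4.45 and 4.44 beside the 4.33 of CD274.

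Promoter letters of the set were read because interferon targets often carry an interferon-stimulated response element (ISRE) or a gamma-activated site (GAS). Sequences of the 250 bases before to 50 after a gene's start were taken from RefSeq (GRCh38.p14) and matched by symbol, and 8 of the 10 genes had an entry, 9 promoters in all, with no entry for IDO1 and PDCD1LG2. The ISRE was searched as GAAA, any 2 bases and GAAA on both strands, the GAS as TTCNNNGAA, which reads the same on both strands, and the kappaB form as GGGA, any 2 bases and TTCC on both strands. Of all 35116 promoters of the same length, 3.57% held the ISRE form, 7.66% the GAS form and 1.61% the kappaB form. CD274 held 2 overlapping ISRE matches on the minus strand, starting 208 and 202 bases before the gene's start, and 1 GAS match starting 125 bases before it. LGALS9 held 1 ISRE match on the minus strand, starting 9 bases before the start, whose last letter is the first transcribed base. The promoters of TNFRSF14, PVR, ICOSLG, CD80, CD86 and VTCN1 held none of the 3 forms in this window. These are matches of letters and not measured binding sites. The stretches of 250 bases before the start of the 2 genes with a match are given 5′ to 3′ with ISRE and GAS matches in capitals, CD274 at chr9:5450292-5450541 and LGALS9 at chr17:27630938-27631187, both GRCh38.p14 and plus strand.
CD274: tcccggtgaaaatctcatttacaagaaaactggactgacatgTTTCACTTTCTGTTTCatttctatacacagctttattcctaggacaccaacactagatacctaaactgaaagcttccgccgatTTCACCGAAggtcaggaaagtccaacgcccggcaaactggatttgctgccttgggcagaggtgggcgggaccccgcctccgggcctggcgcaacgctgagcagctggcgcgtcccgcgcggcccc
LGALS9: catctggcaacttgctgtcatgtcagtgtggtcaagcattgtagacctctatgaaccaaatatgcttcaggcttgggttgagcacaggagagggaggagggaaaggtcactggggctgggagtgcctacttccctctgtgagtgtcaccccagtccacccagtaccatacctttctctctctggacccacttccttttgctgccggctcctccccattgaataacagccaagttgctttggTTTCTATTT

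The 7 called genes kept their direction under each alternative that kept them, while the size of their change varied. For PDCD1LG2, which had to differ, the kept direction adds no support. Over 16 alternatives, the log2 fold change of CD274 ran from 3.28 to 5.22, that of IDO1 from 4.28 to 6.62 and that of LGALS9 from 2.94 to 4.56. TNFRSF14 lay between 1.91 and 2.24 and PVR between 0.38 and 0.55, and ICOSLG ran from -1.57 to -0.69, the last in the deposited log2 values, which hold its other probe. For PDCD1LG2 the fitted value ran from 1.45 to 5.998 over the 15 alternatives that kept it, so the bound given for it holds only for the processing used.

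**Figure D2:**
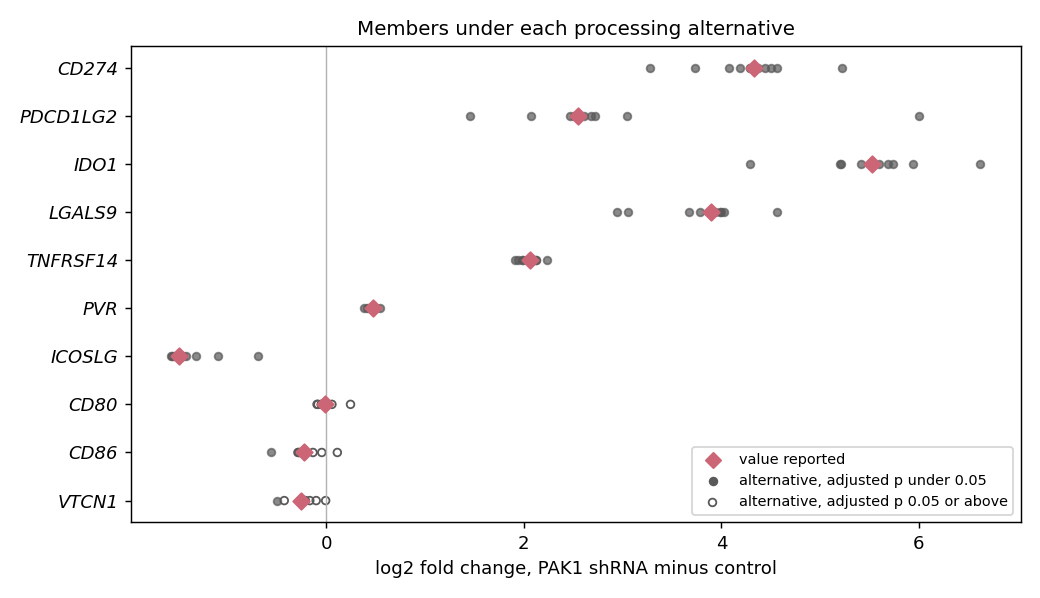
Log2 fold change of PAK1 shRNA minus control (x axis) of each gene as reported (red diamonds) and under each processing alternative (grey), filled where the adjusted p was under 0.05. All points of CD274, PDCD1LG2, IDO1, LGALS9, TNFRSF14 and PVR lie right of 0 and all points of ICOSLG left of it, and filled points of CD86 and VTCN1 come from leaving out 1 control array.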

How the data were processed

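RNA of 4 samples of MCF10A.B2 cells was hybridised to Agilent whole genome arrays in 1 colour (Cy3), and the authors deposited scanner intensities spot by spot from Agilent Feature Extraction (version 9.5 in the submitters' processing notes), not yet normalized between arrays. A second deposited table holds log2 values and served as an alternative; they correlated with the log2 intensities used here (r of at least 0.9995 on each array), and its normalization is not stated in it. Samples were grouped by their titles. Probe coordinates are those of the array files (hg19). Gene names came from the array design, through which list genes were found under current or older RefSeq symbols.

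The methods of the study name normexp, quantile normalization and limma. Here mean signals were background corrected with normexp (offset 50) on the local background, with its parameters fitted without the spots whose local background is flagged as uneven or as an outlier, since a fit on all spots gave background means of -666 and -740 on the control arrays against -10.7 and -10.2 on the PAK1 shRNA arrays. Control spots and flagged spots were left out, arrays were quantile normalized, and repeat spots were averaged by probe. A probe was tested if the scanner called it well above background on both arrays of either group, and each of the 22004 genes left was represented by its probe of highest mean. The test was that of limma 3.58.1 (lmFit, eBayes) under R 4.3.3, two-sided, with Benjamini-Hochberg adjustment over all of them and a threshold of 0.05. Lists were described by counts and medians, without a set test. The script was tested on simulated data of 21909 genes. It called 95% of the 200 genes given a change, and also 37 unchanged genes. These false calls were a larger share of all calls than the threshold of 0.05 allows, so adjusted p-values may be too small.

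The members, lists and settings were chosen with earlier results of these data known. The genes named are the 10 members and PAK1, the 4 genes of each ligand, interferon and kynurenine list with the largest absolute change among those called and well above background on all arrays, up to 4 receptors by their mean, and the 3 genes closest to CD274, except that 1 gene this rule names is not reported here; others are said to be named after their values were seen, as are the genes of a list that fell or were not measured, the marker genes, TDO2 and LGALS9C. Alternatives changed the background correction, the signal column, the normalization, the filter, the handling of flags, the probe rule, the test or the values deposited, added a replicate block, or left out each array in turn. All arrays shared 1 slide, so no slide block was fitted.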

Additional observations from a re-analysis of the deposited data

How the results depend on the processing

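None of the 7 called genes lost its call or its direction where it was tested, but PDCD1LG2, among them, had to differ and adds no support. Over 159 values of the 10 genes under the alternatives, 157 kept their side of the threshold. The exceptions were CD86, at -0.55 without control replicate 1, and VTCN1, at -0.50 without control replicate 2; with each array left out in turn CD86 ran from -0.55 to 0.11 and VTCN1 from -0.50 to -0.0044, and the number of genes of the set called lower from 1 to 2. The cause was not tested. An unpaired t-test is named in the study's methods for its statistics in general, while limma is named for the arrays. Over all genes the unpaired t-test, with Benjamini-Hochberg adjustment, called 4348 genes higher and 4786 lower in place of 6796 and 7057. Without adjustment it called 12087 of 21909 genes at a p under 0.05. By this test too 7 of the 10 genes passed, among them PDCD1LG2, which had to differ. PVR passed only narrowly (unpaired t-test, Benjamini-Hochberg adjusted p = 0.0492). Median centring, and the processed signal scaled to its 75th percentile, moved the median log2 fold change of all genes from 0.02 to 0.14 and 0.12, and raised the receptors called higher from 3 to 8 and 7; CD80 was at 0.25 under median centring and did not pass. PDCD1LG2 moved from 2.55 to 1.45 with normexp fitted on all spots and to 5.998 with the processed signal and percentile scaling together, and dropped out where all arrays had to be above background. ICOSLG was at -0.69 in the deposited log2 values, which hold its other probe. Arrays of the same number did not deviate together (r = 0.0068 over 27517 probes), so they were not treated as pairs; with the replicate block, 6998 genes were called higher and 7168 lower, PAK1 stayed at -0.75, and no call of the set changed.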

Other observations

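CD274 and PDCD1LG2 are neighbours on chromosome 9, and the genes around them were read after their values were seen, over 12 genes in the order of the RefSeq table of GRCh38.p14. Besides the 2 ligands 8 of these were tested. On the log2 scale INSL4 rose by 1.48, RIC1 by 1.19 and RANBP6 by 0.28, each at an adjusted p under 0.05 by limma. PLGRKT was lower with -0.59 and ERMP1 with -0.30, RLN2 was well above background in control cells only and so had to differ, and BRD10 and MLANA did not pass the test. The nearest gene on the side of CD274, PLGRKT, thus fell while CD274 rose, and the nearest on the side of PDCD1LG2, RIC1, rose by less than either ligand.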
